A study of Drosophila melanogaster with 2 samples.

Results

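The 28B Oligopaint target is a stretch of 680 kb on the left arm of chromosome 2 (2L:7256488-7936487, dm3), for which the study designed a pool of short DNA probes, detected through labelled secondary oligos, to follow pairing by FISH. Its members here are the 680 bins of 1 kb, or 170 bins of 4 kb, that tile these coordinates, out of 119033 bins of 1 kb on the 5 large arms. They were chosen by position alone, on the maternal and the paternal homolog, and the other 22333 bins of 1 kb of 2L served as background. Haplotype-resolved Hi-C of this stretch came from whole F1 hybrid embryos, collected 2 to 4 h after laying by DGRP-057 females crossed to DGRP-439 males, in 2 biological replicates of 1 condition. DGRP lines are inbred lines of wild flies, and single-nucleotide differences between the lines assign each read to a homolog. Whole embryos hold many nuclei at different stages, so each value is an average over them.

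In Drosophila, maternal and paternal homologs lie side by side in somatic nuclei, and this pairing is first set up in the early embryo. A pair of Hi-C reads on the same homolog is a cis contact, and a pair with an end on each homolog of the same arm is a trans-homolog contact. Cis contacts fall into domains, stretches that contact themselves more than their neighbours, which are set apart by boundaries. Pairing lets regulatory elements of a homolog act on the gene copy of the other homolog, a phenomenon called transvection. Gene names are not given, since no annotation of dm3 was used here, and no sequence is printed for the same reason.

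Replicate 1 held 24390496 pairs and replicate 2 held 24659056 pairs over the genome. Inside the 28B target, with both ends in it, lay 204588 pairs in replicate 1 and 204053 pairs in replicate 2. Most of them were cis pairs below 3 kb (83.1% ± 1.30, SD, n = 2), which are dominated by unligated fragments, so contacts were counted from 3 kb upwards. There remained 2188 and 2228 trans-homolog pairs in replicates 1 and 2, beside 15203 and 16910 maternal cis pairs and 14829 and 16747 paternal cis pairs. The homologs were thus covered about evenly. Over all pairs with an end in the target, those below 3 kb included, 50.6% ± 0.11 of read ends lay on the maternal homolog. Maternal over paternal cis pairs at 3 to 100 kb stood at 1.02 ± 0.00092 in the target, against a median of 1.05 in 32 other windows of 680 kb on 2L (0.97 to 1.20). Of cis contacts of at least 3 kb with an end in the target, 40.6% ± 0.96 had the other end outside it.

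Trans-homolog pairs can arise when a cis read is assigned to the wrong homolog. This homolog misassignment was estimated as the ratio of trans-homolog to cis pairs among inward pairs at 300 to 600 bp, where unligated fragments abound. In 28B it was 0.129% in both replicates (134 trans-homolog pairs in each). By the mean of both replicates this was the lowest of the 33 windows of 2L. The means of the others ranged between 0.137% and 6.43% with a median of 0.192%. In replicate 2, however, the window at 2L:2496488-3176487 was level with 28B, at 0.129%. With pairs whose mapping quality was at least 30 at both ends, the misassignment of 28B was 0.0247% ± 0.0078. At that quality 28B was not the lowest, since the window at 2L:1816488-2496487 was lower in each replicate. The rank of 28B in misassignment is therefore not firm. Misassigned pairs would make up 1.96% ± 0.15 of the trans-homolog pairs at 3 to 100 kb in 28B, against a median of 3.29% in the other windows, of which 31 of 32 were higher. Trans-homolog pairs with the maternal end on the left numbered 888 and 946 in replicates 1 and 2, and those with the paternal end on the left 884 and 878.

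At 3 to 100 kb replicate 1 had 1772 trans-homolog pairs, which were 6.98% of its cis pairs, and replicate 2 had 1824, which were 6.27% (mean 6.62% ± 0.50). The median of the other 32 windows was 5.91%, and 9 of them were higher than 28B. The highest other window, at 13.3%, lies within 2 Mb of the centromere end of 2L. It is also the window with 6.43% misassignment, by which 48.5% of its trans-homolog pairs would be misassigned. With misassigned pairs subtracted it had 6.84%, against 6.50% in 28B. Among the 29 windows farther than 2 Mb from that end the median was 5.69% and the maximum 8.55%, and 6 were higher than 28B. With mapping quality of at least 30 the 28B value was 6.64% ± 0.64, and 5 of the 32 other windows were higher. The target held more trans-homolog pairs than 31 of the 32 other windows, whose median was 1135 pairs per replicate, so its values rest on more reads than most of the arm.

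The share of trans-homolog contacts grew with separation in the target. At 1 to 3 kb they were 3.66% ± 0.29 of cis contacts (3.87% in replicate 1 and 3.46% in replicate 2). At 3 to 10 kb they were 5.10% ± 0.95, at 10 to 30 kb 6.90% ± 0.31 and at 30 to 100 kb 7.81% ± 0.24. At 100 to 300 kb the ratio was 8.70% ± 0.34, and at 300 to 680 kb it was 9.69% ± 0.94, with only 83 and 96 trans-homolog pairs in replicates 1 and 2. In replicate 1 the last step was within 0.1 percentage points, at 9.03% after 8.94%, while replicate 2 gave 10.4% after 8.46%. All earlier steps went up in both replicates. The medians of the other windows were 3.28%, 4.25%, 5.91%, 7.37%, 9.21% and 10.1% over the same 6 ranges. The target lay above the median up to 100 kb and below it beyond, where 19 and 20 of 32 windows were higher, and at every range it lay inside the range of the other windows.

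**Figure D1:**
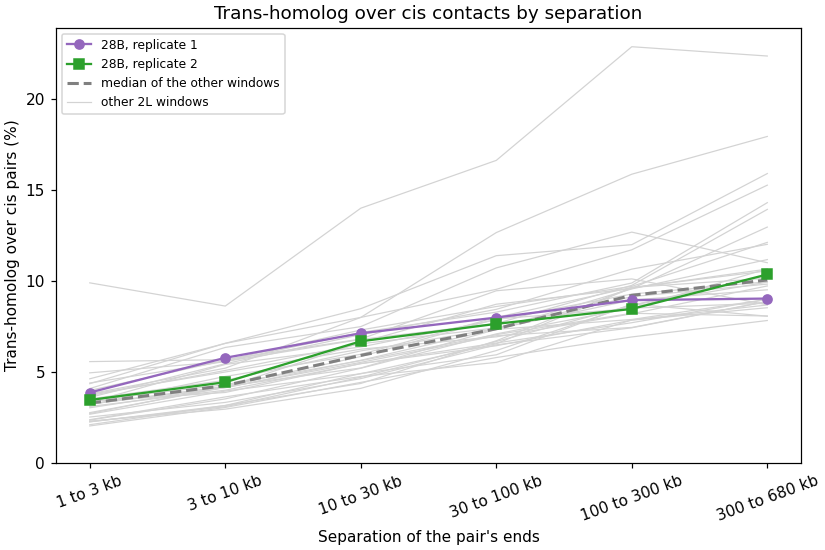
Trans-homolog pairs in percent of cis pairs (vertical axis) in 6 ranges of separation (horizontal axis), for 28B in replicate 1 (circles) and replicate 2 (squares), the median of the 32 other windows of 2L (dashed) and each of those windows (thin grey, mean of 2 replicates). The 28B mean is 3.66% at 1 to 3 kb and 9.69% at 300 to 680 kb.

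Both kinds of contact became rarer with separation, and trans-homolog contacts did so more slowly. On a log-log scale between 3 and 300 kb the slope of trans-homolog contact frequency was -0.97 ± 0.012, and that of cis contact frequency was -1.14 ± 0.037 (SD, n = 2). The slopes differed by 0.13 in replicate 1 and by 0.20 in replicate 2. The mean difference of 0.17 ± 0.049 was smaller than in 27 of the 32 other windows, whose median was 0.22 and whose trans-homolog slopes had a median of -0.93. Set against the density of contacts between 28B and chromosome 3, which are trans-heterolog contacts, trans-homolog contacts were 1374 ± 196 times as dense at 1 to 3 kb. They were 432 ± 21.9 times as dense at 10 to 30 kb, 147 ± 9.08 at 30 to 100 kb, 29.9 ± 4.99 at 100 to 300 kb and 11.1 and 10.9 times at 300 to 680 kb in replicates 1 and 2.

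The corrected maps were masked where few reads could be assigned to a homolog. Of the 680 bins of 1 kb, 503 were visible on the maternal homolog, 500 on the paternal homolog and 516 on at least 1 of them (75.9%, against 70.1% over the rest of 2L). The other 164 bins formed 8 stretches of at least 5 kb and many shorter ones. The longest, of 13 kb each, lay at 2L:7760488-7773487 and 2L:7821488-7834487, and another of 11 kb lay at 2L:7729488-7740487. The stretch at 2L:7821488-7834487 held no pair of at least 3 kb from either homolog. Why reads are missing there was not tested.

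**Figure D2:**
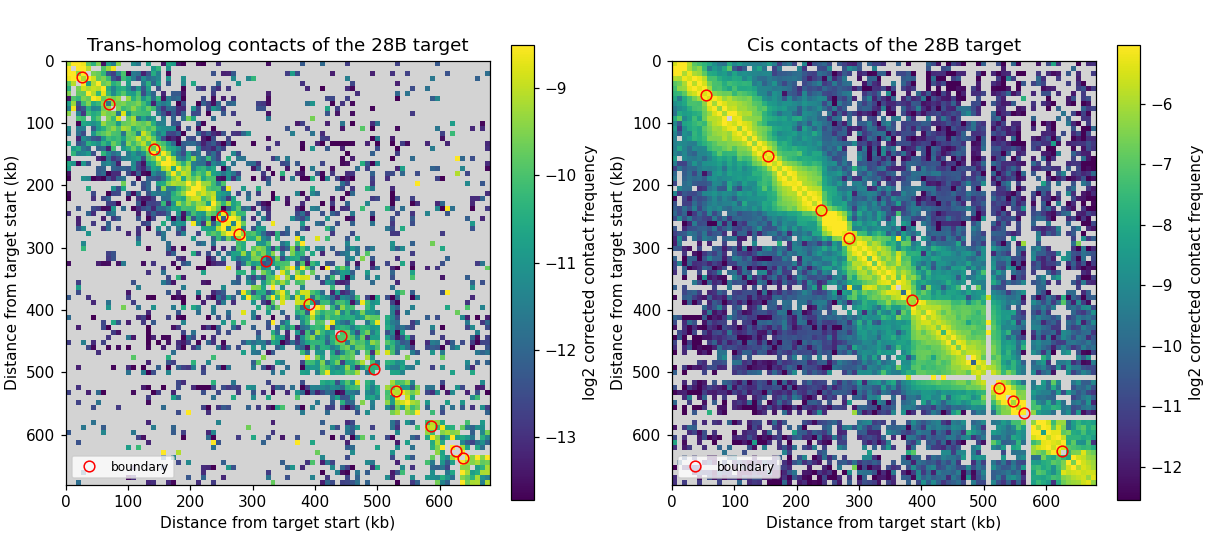
Trans-homolog contacts (left) and cis contacts (right, mean of both homologs) of the 28B target, as log2 corrected contact frequency by colour in pixels of 8 kb. Both axes give the distance from the target start in kb, red circles mark the 13 trans-homolog and 9 cis boundaries, and grey pixels hold no pair or are masked. The cis blocks near 54 to 154 kb, 154 to 240 kb and 384 to 524 kb have fainter counterparts in the trans-homolog map.

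The target held 13 trans-homolog boundaries, found as minima of the insulation score in bins of 4 kb. This score is the log2 mean contact frequency across a bin, relative to the median of 2L, within 40 kb on each side. The 13 calls came from 160 bins with a score (8.12%), and over all of 2L 8.22% of 5269 bins were called, so the target was close to the arm. The other windows held 8 to 17, with a median of 13. The most prominent of them was at 2L:7532488-7536487 (278 kb from the target start), where trans-homolog insulation was -1.12 in the pooled map, -0.80 in replicate 1 and -1.18 in replicate 2, with a prominence of 2.00. Next came 2L:7644488-7648487 (390 kb), at -1.66 in replicate 1 and -0.32 in replicate 2, with a prominence of 1.95. At 2L:7396488-7400487 (142 kb) the score was -0.40 in replicate 1 and -0.57 in replicate 2, with a prominence of 1.37. All 3 had negative scores in both replicates, and they ranked 64, 69 and 114 by prominence among the 433 of 2L. They were called on the pool of these replicates, so the shared sign is partly built in. The nearest boundaries called in replicates 1 and 2 alone lay 8 and 16 kb from the one at 142 kb.

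The remaining 10 trans-homolog boundaries had prominences between 0.32 and 0.87. Those at 250 kb (2L:7504488-7508487), 530 kb (2L:7784488-7788487), 626 kb (2L:7880488-7884487) and 638 kb (2L:7892488-7896487) lay within 16 kb of a cis boundary, and so did the one at 70 kb (2L:7324488-7328487). Those at 26 kb (2L:7280488-7284487), 322 kb (2L:7576488-7580487), 442 kb (2L:7696488-7700487), 494 kb (2L:7748488-7752487) and 586 kb (2L:7840488-7844487) did not. The boundary at 494 kb is a dip between very high scores, with 1.51 in the pooled map, and lies beside the masked stretches described above. The 2 libraries did not share a sign at 250 kb, with 0.20 in replicate 1 and -0.11 in replicate 2, nor at 442 kb, with -0.094 in replicate 1 and 0.35 in replicate 2. Of all 13, only those at 278, 390, 530 and 638 kb recurred within 4 kb in the maps of both single replicates. In replicate 2 the nearest boundary was 24 kb away from the one at 26 kb and 28 kb from that at 250 kb. It was 36 kb away from those at 494 and 586 kb. The lowest trans-homolog scores of the target, near 570 kb, gave no boundary of their own because the bins there adjoin masked bins.

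In cis, 9 boundaries were called in bins of 1 kb on the mean of the maternal and paternal maps. They made up 1.78% of 506 scored bins, where 1.86% of 15009 bins of 2L were called, and the other windows held 4 to 14 with a median of 8. All 9 recurred within 4 kb in the map of replicate 1 and 8 in that of replicate 2. Both replicates and both homologs went into the mean map, so recurrence in them is partly built in. The share recurring over the rest of 2L was not worked out. Separate maps of the homologs gave 9 boundaries each, of which 7 maternal and 8 paternal ones lay within 4 kb of a boundary of the mean map. The maternal and paternal insulation scores rose and fell together over 666 bins (Spearman's rho 0.93, Pearson's r 0.92), with rho in the other windows at a median of 0.87. The replicates gave rho of 0.96, and none of the 32 other windows was higher. Neighbouring bins share contacts and both homologs share libraries, so these correlations are descriptions.

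**Figure D3:**
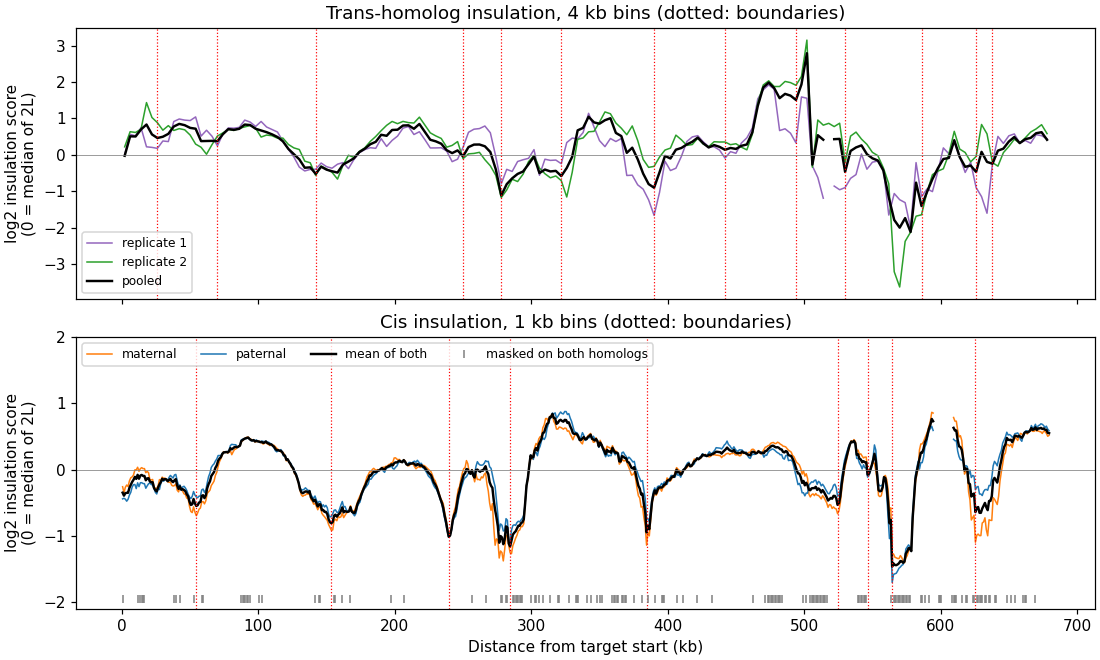
Log2 insulation score (vertical axes, 0 is the median of 2L) along the target (horizontal axis, kb from its start). Top, trans-homolog score in 4 kb bins for replicates 1 and 2 and the pooled map; bottom, cis score in 1 kb bins for the maternal and paternal homologs and their mean. Dotted lines are boundaries and grey ticks are bins masked on both homologs. The homologs run together in cis, while the trans-homolog replicates part most between 500 and 640 kb.

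The first cis boundary (B1, 2L:7310488-7311487) lay 54.5 kb from the target start and had a score of -0.70 on the maternal and -0.41 on the paternal homolog. B2 (2L:7409488-7410487, 153.5 kb) had -0.92 on the maternal and -0.71 on the paternal homolog. B3 (2L:7495488-7496487, 239.5 kb) was the clearest in terms of coverage, since no bin within 10 kb of it was masked. Its score was -1.01 in the mean map and -1.02 on the paternal homolog, and -0.99 and -1.14 in replicates 1 and 2. B4 (2L:7540488-7541487, 284.5 kb) was deeper, at -1.26 on the maternal and -1.08 on the paternal homolog, and its prominence of 1.77 ranked 20 among the 279 cis boundaries of 2L. However, 12 of the bins within 10 kb of B4 were masked, and a masked stretch of 8 kb (2L:7542488-7550487) lies just past it. B5 (2L:7640488-7641487, 384.5 kb) had -1.14 on the maternal and -0.75 on the paternal homolog, and the bin just past it (2L:7641488-7642487) was masked. B4 and B5 are those beside the 2 most prominent trans-homolog boundaries.

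Farther along, B6 (2L:7780488-7781487, 524.5 kb) had -0.67 on the maternal and -0.40 on the paternal homolog. B7 (2L:7802488-7803487, 546.5 kb) was the faintest of the 9, with a score of -0.078 and a prominence of 0.31, and replicate 2 had no boundary within 4 kb of it. B8 (2L:7820488-7821487, 564.5 kb) had the lowest score, -1.27 on the maternal and -1.71 on the paternal homolog, and its prominence of 2.41 ranked 3 on 2L. It directly adjoins the 13 kb without pairs, where few pixels stand behind the score, and in bins of 4 kb the nearest boundary was 38.5 kb away. All 9 scores were negative on each homolog and in each replicate, though the bins were picked as minima of the map that these make up. B9 (2L:7881488-7882487, 625.5 kb) differed most between the homologs, at -1.10 on the maternal and -0.31 on the paternal homolog, with 13 of the bins within 10 kb masked. With boundaries next to masked bins dropped, 5 of the 9 cis boundaries stood, and those lost were B5, B7, B8 and B9. In bins of 4 kb, 7 were called, and each of these was at most 2.5 kb from a boundary called in the finer bins.

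A cis boundary was found within 16 kb for 8 of the 13 trans-homolog boundaries (61.5%), and elsewhere on 2L it was 221 of 420 (52.6%). Taken the other way, 7 of the 9 cis boundaries (77.8%) had a trans-homolog boundary within 16 kb, against 203 of 270 (75.2%) elsewhere on 2L. The target thus stood near the arm in both shares, and with 13 and 9 boundaries a single one shifts them by several points. Some matches within 16 kb would arise by position alone, in the target and on the arm, and their share was not worked out here. Over 169 bins of 4 kb, the trans-homolog and cis scores had a Spearman's rho of 0.51 (Pearson's r 0.55), and the median rho of the other windows was 0.57. The trans-homolog scores of the replicates had a rho of 0.58 with each other, each at a lower depth than the pooled map.

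The 9 boundaries divided the target into 10 domains, D1 to D10 in order, of which D1 and D10 are cut by the target's edges. The 8 whole domains measured 18.0 to 140.0 kb, with a median of 73.5 kb. Between 30 and 100 kb, 55.5% ± 0.095 of trans-homolog pairs and 56.5% ± 1.94 of cis pairs had both ends in the same domain. If pairs of points at these separations were laid evenly over the target, 36.9% would do so. In the other windows the medians were 47.9% for trans-homolog pairs, 51.6% for cis pairs and 44.3% for evenly laid points. The even layout takes no account of masked bins or of uneven coverage among domains. The gap between pairs and points therefore cannot be read as an effect of the domains alone. At 10 to 30 kb the shares were 81.7% ± 1.80 for trans-homolog pairs, 84.3% ± 0.63 for cis pairs and 75.1% for evenly laid points. At 30 to 100 kb the trans-homolog share minus the cis share was 0.36 percentage points in replicate 1 and -2.24 in replicate 2, so its sign differed between the libraries. At 10 to 30 kb the same difference was negative in both, at -0.82 and -4.27 points. The domains were called on these cis contacts, so the cis shares are not independent of the calls.

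Within single domains, the ratio of trans-homolog to cis pairs was taken at 3 to 20 kb, and it varied along the target. D1 (2L:7256488-7310987) had 8.57% in replicate 1 and 7.35% in replicate 2 (mean 7.96% ± 0.87), on 69 and 72 trans-homolog pairs. Both values were above those of every other domain of the target in either replicate, where the highest was 7.14%. D3 (2L:7409988-7495987) was next by its mean, with 6.82% and 6.10% in replicates 1 and 2, on 208 and 215 trans-homolog pairs. D2 between them (2L:7310988-7409987) had 5.91% and 5.16%, lower than D1 and D3 within each replicate. In 253 domains elsewhere on 2L with at least 400 cis pairs the median was 4.76%, and the 5th and 95th percentiles were 2.36% and 7.95%.

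Past B4 the ratio was lower in the next 3 domains. D5 (2L:7540988-7640987), between B4 and B5, had 5.26% and 3.03% in replicates 1 and 2, on 47 and 36 trans-homolog pairs. D6 (2L:7640988-7780987), the largest domain, had 5.42% and 4.15% on 121 and 105 pairs. D7 (2L:7780988-7802987) had 4.15% and 4.49%, and it was the only domain with a higher value in replicate 2. D4 (2L:7495988-7540987), between B3 and B4, had 5.96% and 4.84%, and its misassignment of 0.298% was the highest of the 10 domains. D8 to D10 had means between 4.96% and 5.83% with SDs of 1.54 to 2.43, on 12 to 33 trans-homolog pairs per replicate, and cannot be placed among the others. Thus D1 and D3 lay above D5, D6 and D7 in each replicate without overlap, while most neighbours in the order of means overlapped. These domains were set side by side after their values were seen, so the lack of overlap is a description only. Over the 10 domains the replicates had a Spearman's rho of 0.37 and a Pearson's r of 0.63.

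**Figure D4:**
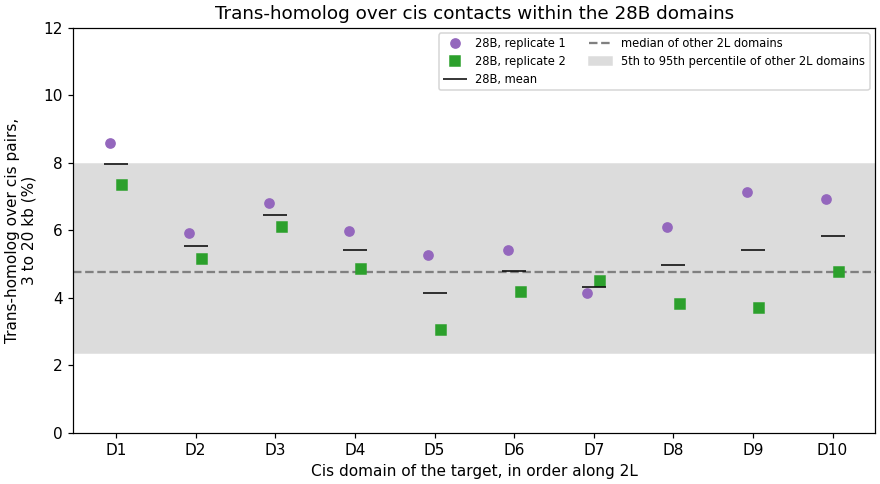
Trans-homolog over cis pairs at 3 to 20 kb in percent (vertical axis) in the 10 cis domains of 28B (horizontal axis, in order along 2L), for replicate 1 (circles), replicate 2 (squares) and their mean (bars). The dashed line is the median (4.76%) and the grey band the 5th to 95th percentile (2.36% to 7.95%) of 253 other domains of 2L. D1 is highest in the mean at 7.96% and D5 lowest at 4.14%.

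The same ratio in segments of 40 kb, named here after their values were seen, was highest in the mean of both replicates in the first one (2L:7256488-7296487), with 8.27% and 7.98% in replicates 1 and 2 on 51 and 60 trans-homolog pairs. The mean was lowest between 320 and 360 kb (2L:7576488-7616487), with 5.06% and 2.38% on 20 and 13 pairs, though at least 1 other segment was lower than it in each single replicate. The replicates did not overlap between these 2 segments. Since the segments were picked as the highest and lowest by these same values, this is a description only.

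The pairing score gives the local strength of pairing as log2 of the mean corrected trans-homolog contact frequency within 3 bins of 4 kb on each side. Scores are given relative to the median of 2L. A score was had for 159 of 170 bins of the target. Their median was 0.20 above that of 2L in the pooled map, and 11 of the 32 other windows were higher. The replicates differed here, with 0.37 in replicate 1 and -0.0031 in replicate 2, so the median of 28B was not clearly apart from that of the arm. Between replicates the score of a bin differed by a median of 0.39, and by over 1 in 32 of 156 bins (Spearman's rho 0.47, Pearson's r 0.44 over 156 bins that share pixels with their neighbours).

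Inside the target, the 5th and 95th percentiles of the score were -0.88 and 1.02, a spread of 1.90. The other windows had a median spread of 2.64, and 29 of 32 were wider. In replicate 1 alone the spread was 1.78 and in replicate 2 alone 3.02. Scores at least 1 below the median of 2L in both replicates were found in 2 of 156 bins (1.28%), where over 2L it was 10.6%, and 28 of the 32 other windows held more. Scores at least 1 above it in both replicates were found in 3 of 156 bins (1.92%), where over 2L it was 5.49%. By window the target was in the middle here, since the others held a median of 2.5 such bins. Of the 32 other windows, 15 held more and 16 fewer, with up to 45 in a single window. Across the 33 windows, those with more trans-homolog pairs had a narrower spread (Spearman's rho -0.69, Pearson's r -0.52) and fewer low bins (rho -0.61, r -0.51). The window with the most trans-homolog pairs had a spread of 1.80, and the part of depth in the narrow range of 28B was not tested.

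The sides of the median were shared along long stretches. Of 156 bins, 72 were above the median of 2L in both replicates, 37 below it in both, and 47 on opposite sides. The first 56 kb (2L:7256488-7312487) were above it throughout, with a median of 0.74 in replicate 1 and 0.85 in replicate 2, and this stretch ends at B1. The stretches at 124 to 184 kb (2L:7380488-7440487), 192 to 244 kb (2L:7448488-7500487) and 248 to 280 kb (2L:7504488-7536487) were above it too, with medians of 0.47 to 0.92 in either replicate. They span the end of D2 and nearly all of D3 and D4, and end just before B4. A short one followed at 520 to 540 kb (2L:7776488-7796487), at 0.37 and 0.38. This short stretch is narrower than the window of bins behind a single score. The only stretch of at least 5 bins below the median in both replicates was at 420 to 476 kb (2L:7676488-7732487) inside D6, with -0.47 in replicate 1 and -0.42 in replicate 2. Scores of neighbouring bins share pixels, so a run of bins is not a set of separate observations. Neither the counts of bins by side nor the stretches were set against the rest of 2L. They are descriptions of the target only, and whether it differs from the arm in them was not tested.

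**Figure D5:**
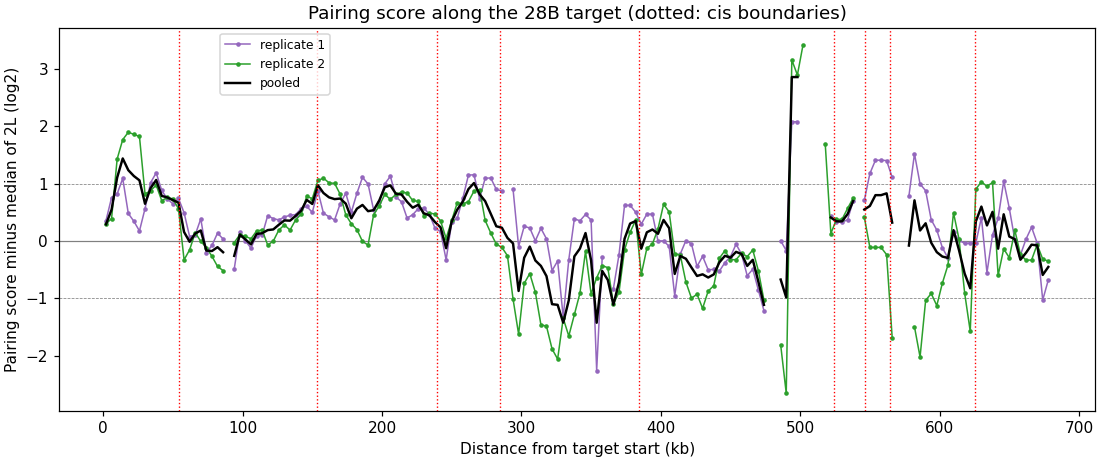
Pairing score minus the median of 2L (vertical axis, log2) in 4 kb bins along the target (horizontal axis, kb from its start), for replicates 1 and 2 and the pooled map. Red dotted lines are cis boundaries, dashed lines mark 1 above and below the median, and gaps are bins with no score. Both replicates lie above 0 over the first 56 kb and below it between 420 and 476 kb, and they part most near 490 kb and between 566 and 590 kb, and less widely between 294 and 342 kb.

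By its pooled median the score was highest in D1 (0.86), followed by D8 (0.80, on 4 scored bins, with 1.41 in replicate 1 and -0.11 in replicate 2) and D3 (0.67). It was lowest in D5 (-0.34) and D6 (-0.30). D6 was below the median of 2L in both replicates, at -0.20 and -0.26, and so was no other domain. In D5 the replicates opposed each other, with 0.22 in replicate 1 and -0.89 in replicate 2, and D9 did likewise with 0.19 and -0.97. The high scores of D1 (0.74 and 0.85) and D3 (0.61 and 0.70) were thus shared by the libraries, and the low score of D5 came from replicate 2.

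The highest score of the target was at 2L:7752488-7756487, with 2.86 in the pooled map, 2.08 in replicate 1 and 2.90 in replicate 2, together with the bin before it. It sits between masked stretches, only 30 of the 49 pixels behind it were visible, and a visible bin in its window held 19 pairs. With bins of under 100 pairs masked, a setting chosen after seeing the data, the score of these bins was -0.89. The second highest, at 2L:7268488-7272487 in D1, had 1.09 in replicate 1 and 1.77 in replicate 2, from bins of which the least covered held 44 pairs, and it had no score under that setting. D1 as a whole kept a median of 0.83 there. The third, at 2L:7292488-7296487 in D1, had 1.19 and 0.98 with at least 349 pairs in every visible bin. The high scores at the start of the target therefore rest on well covered bins as well, unlike the peak near 498 kb.

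The lowest score was at 2L:7608488-7612487 in D5, at -1.42 in the pooled map with -2.26 in replicate 1 and -0.64 in replicate 2, and a bin in its window held 15 pairs. The bin 2L:7584488-7588487, also in D5, had -1.33 in replicate 1 and -1.35 in replicate 2, and -1.20 with bins of under 100 pairs masked. The bin 2L:7728488-7732487 at the end of D6 had -1.21 and -1.03, with 25 of 49 pixels visible, and -1.13 with bins of under 100 pairs masked. These last 2 bins are the ones that were low in both replicates.

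At the 9 cis boundaries the pooled pairing score was above the median of 2L in 8, with a median of 0.34, and below it at B5 (-0.13). Only B1, B2, B3, B6 and B7 were above it in both replicates. The replicates lay on opposite sides at B4 (0.87 in replicate 1 and -0.11 in replicate 2), B5 (0.30 and -0.58), B8 (1.11 and -1.68) and B9 (-0.035 and 0.90). Over all scored bins of the target 97 of 159 (61.0%) were above it, with a median of 0.20. At the 263 scored cis boundaries elsewhere on 2L it was 146 (55.5%), with a median of 0.16. Counting scores above the median in both replicates, it was 5 of the 9 boundaries, 72 of 156 bins of the target (46.2%) and 103 of 257 boundaries elsewhere (40.1%). The highest pooled scores of the 9 were those of B2 (0.97) and B1 (0.67), and each of these lies at the edge of a stretch of high scores or within one.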

How the data were processed

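The members and the settings were chosen with earlier results of these data known. The authors mapped the reads with BWA 0.7.15 to a diploid genome of the cross in dm3 coordinates, and removed duplicates and reads without a unique place. Each line of the deposited files gives where and on which strand the ends of a pair mapped, with the aligner's mapping quality as a score. All lines with both ends on the 5 large arms were used (24277477 pairs in replicate 1 and 24544367 in replicate 2). The replicates were deposited separately, and were pooled here for maps only. Ratios come from single replicates, with their mean ± SD (n = 2). With 1 condition, no comparison of groups was tested. A pair of replicates limits each SD, and counting error alone is large where few trans-homolog pairs are given.

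Maps of the 5 large arms used contacts of at least 3 kb (11346667 pairs). The 2L grid was set to the target start. Bins were masked below a MADmax of 7, with under 10 pairs (4 kb) or 30 pairs (1 kb), or with under 5 partner bins, and the rest were iteratively corrected to a relative variance of 1e-05. The program of the authors was not used, and the correction was written anew. The pairs below 3 kb were also left out of contact ratios other than misassignment and the 1 to 3 kb range. Insulation used windows of 40 kb, with at least 50% (4 kb) or 25% (1 kb) of pixels visible. Boundaries needed a prominence of at least 0.3, and trans-homolog ones were dropped next to masked bins. The pairing score had W = 3. Named loci are all boundaries and domains, the 3 highest and 3 lowest scores at least 20 kb apart, and scores at least 1 from the median in both replicates. Stretches are runs of at least 5 bins. Other windows are the 32 of the same length on 2L with at least 50% of bins visible. Iterative correction, boundary calls in bins of 4 kb and the pairing score were tried on simulated data. The counting of pairs and the boundary calls in bins of 1 kb were not. Python 3.11.15, numpy 2.4.6, scipy 1.17.1, pandas 2.3.3 and matplotlib 3.10.9 were used.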

Additional observations from a re-analysis of the deposited data

How the results depend on the processing

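Trans-homolog over cis contacts of 28B were 7.35% at 10 to 100 kb. Misassignment was 0.131% at 200 to 800 bp and 0.0247% with mapping quality of at least 30. The median pairing score relative to 2L was 0.71 without iterative correction, and lay between -0.0031 (without replicate 1) and 0.37 (without replicate 2), so its sign rests on replicate 1. The spread of the score was 3.40 with W = 1, 3.74 without iterative correction, and 1.78 to 3.02 with a single replicate. With mapping quality of at least 30, 5 cis boundaries were called, and 5 with those next to masked bins dropped. Trans-homolog boundaries numbered 21 with an insulation window of 20 kb and 7 with a prominence of at least 0.5. The causes were not tested. The maps held 2629052 pairs at the stricter mapping quality, against 11346667. No paired analysis was possible because there is 1 group. The least number of 100 pairs per bin was chosen after seeing the data. Depth limits domains with few trans-homolog pairs, down to 12 in a replicate.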
